A study of Mus musculus with 2 samples.

Results

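C1q-low monocyte-like cells were 486 of the 7005 cell barcodes in a pair of single-cell RNA libraries from mouse tumours under PD-1 blockade, 232 of 4425 in the responder library and 254 of 2580 in the non-responder library. A barcode belonged to them if it had at least 500 detected genes, at most 10% mitochondrial UMIs, at least 20 UMIs of Lyz2, no UMI of Cd3d, Cd3e or Cd3g, under 5 UMIs of Ccl22, Ccl17, Cd209a and Ccr7 together, and under 1% of its UMIs from C1qa, C1qb and C1qc. A UMI, or unique molecular identifier, stands for 1 captured RNA molecule. Lyz2 encodes the lysozyme of myeloid cells, the Cd3 genes mark T cells, and the 4 other limiting genes mark dendritic cells. The C1q-high barcodes used for comparison met the same limits with 1% or more C1q, and there were 5070 of them, 3201 in the responder library and 1869 in the non-responder library. Because measured values of these barcodes chose the members, C1q, Lyz2 and the other genes of the rule, and 6 marker genes proposed with it (Chil3, S100a8, Cxcl3, Slpi, Hp and Thbs1), are described here with no test.

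Both libraries held CD45+ cells, that is leukocytes, sorted by flow cytometry from subcutaneous tumours of C57BL/6 mice. The tumours grew from 50000 cells of MC38-GFP, a mouse colon adenocarcinoma line with green fluorescent protein, placed below the right shoulder. Mice of both groups received anti-PD-1 at a sub-optimal level, 100 ug on days 12, 15, 18 and 22, and the labels called 1 library responder and 1 non-responder. How many mice entered a library was not given, neither library came from untreated tumours, and 1 library per group was analysed, so no difference between the groups below has a replicate check. RNA was captured with a 3' droplet kit, so that a gene's count depends on its 3' end and levels are compared within a gene and not between genes.

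Monocytes that carry Ly6C leave the bone marrow through the receptor CCR2 and enter inflamed tissue and tumours. There they lose monocyte genes and take on genes of tissue macrophages, among them the 3 chains of C1q, the first component of the classical complement pathway. Depending on the signals they meet, such cells can present antigen on MHC class II, respond to interferon-gamma, or take on suppressive functions such as arginine breakdown by arginase. In mouse tumours, immature myeloid cells of this kind are often described beside the C1q+ macrophages that they can become.

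The C1q-low barcodes made up 6.76% of the barcodes that met the other limits in the responder library (95% interval 5.94% to 7.65%) and 12.0% in the non-responder library (10.6% to 13.4%). These exact Clopper-Pearson intervals, like all intervals below, cover counting error only. Of all barcodes they were 5.24% in the responder library and 9.84% in the non-responder library. The share depended on the limit, since the C1q share ran without a gap across it. With the limit at 0.5% the shares were 4.28% in the responder library and 7.16% in the non-responder one, and with the limit at 2% they were 20.7% in the responder library and 41.4% in the non-responder one. The share was lower in the responder library under each limit tried, but these limits cut the same barcodes and are not separate checks. C1q-high barcodes also had a lower median C1q share in the non-responder library, 2.26% against 2.65%. Members with 10 or more UMIs of the monocyte genes Plac8, Ly6c2 and Chil3 together were 119 of 3433 responder and 95 of 2123 non-responder barcodes.

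**Figure D1:**
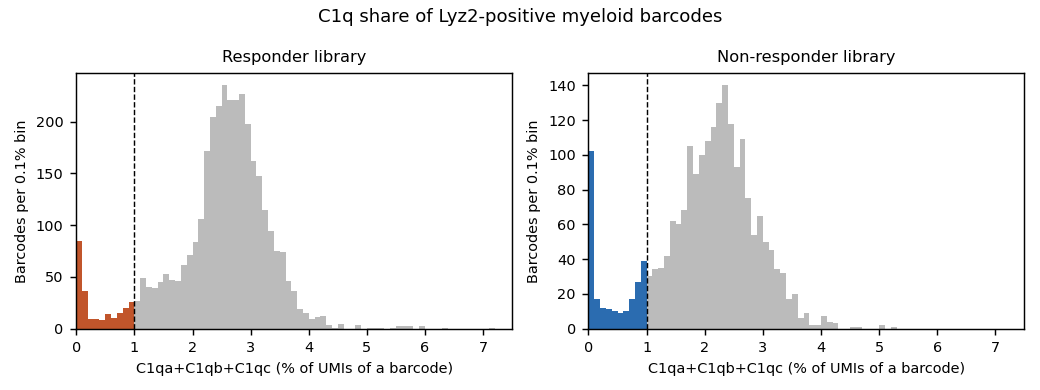
Number of barcodes by the share of their UMIs from C1qa, C1qb and C1qc, in percent, for barcodes that met the other limits. The responder library is on the left and the non-responder library on the right, with the C1q-low members coloured. Most barcodes sit above the dashed line at 1%, where the C1q-high medians were 2.65% (responder) and 2.26% (non-responder). The members have a peak of their own in the lowest bin, with 85 responder and 102 non-responder barcodes. Bins then fall to 8 barcodes (responder, from 0.4%) and 9 (non-responder, from 0.5%). They rise again to 26 and 39 in the last bin below the line, with no empty stretch between.

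The C1q-low barcodes had fewer UMIs than the C1q-high barcodes, with a median of 7343 against 10533 in the responder library and 9166.5 against 12563 in the non-responder library. Their summed counts came to 2140748 UMIs in the responder library and 2885019 in the non-responder one, against 35044974 and 24717422 UMIs in the responder and non-responder C1q-high barcodes. C1q was detected in them at a median share of 0.180% of UMIs in the responder library and 0.282% in the non-responder one. T cell barcodes, which do not make C1q, were 171 with 3 or more UMIs of the Cd3 genes, under 20 UMIs of Lyz2 and the same gene and mitochondrial limits. The Lyz2 limit leaves out barcodes that also hold much myeloid RNA. By median, the T cell barcodes had 0.111% C1q in the responder library and 0.0389% in the non-responder one at median depths of 3933 and 5146 UMIs. Over summed counts, C1q was 0.368% of the UMIs of responder members and 0.407% of those of non-responder members, against 0.597% and 0.157% in the T cell barcodes. Of the 102 responder T cell barcodes, 89 were under 0.5% C1q and 2 at 0.5% to 1%, and the others reached up to 2.87%, as C1q-high barcodes do. The responder T cell sum is therefore not the level of most T cell barcodes and gives no background for the members. The libraries shared 14 barcode sequences, 1 of them a member in each library.

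A few barcodes stood apart from the other members. In each library 4 members, 8 in all, had 10 or more UMIs of a list of 9 fibroblast markers, and no C1q-high barcode did. They held between 74230 and 96573 UMIs in the responder library and between 47186 and 155319 in the non-responder library, far above the member medians, and so made up 16.04% of the C1q-low UMIs in the responder library and 13.8% in the non-responder one. Lyz2 was at most 0.0840% of their UMIs in the responder library and 0.0487% in the non-responder one, against a member median of 0.913% and 0.825% in the responder and non-responder library. They carried 100.0% of the Serpinh1 UMIs (a collagen chaperone) of the C1q-low class in the responder library and 98.6% in the non-responder one, but at most 0.403% of its Plac8 UMIs, and no Chil3 UMI was in them. Only 2 of the 4 in each library had a UMI of Ptprc, the gene of CD45, and Col1a1, Epcam, Krt8 and Krt18 had no UMI in them, while the homeobox gene Rhox5 had 553 CPM in the responder and 381 CPM in the non-responder ones. What cells they came from was not tested. They passed the rule because its Lyz2 limit is a number of UMIs and not a share. Results below include them unless said otherwise, and values without them are given for only some of the results that they touch.

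**Figure D2:**
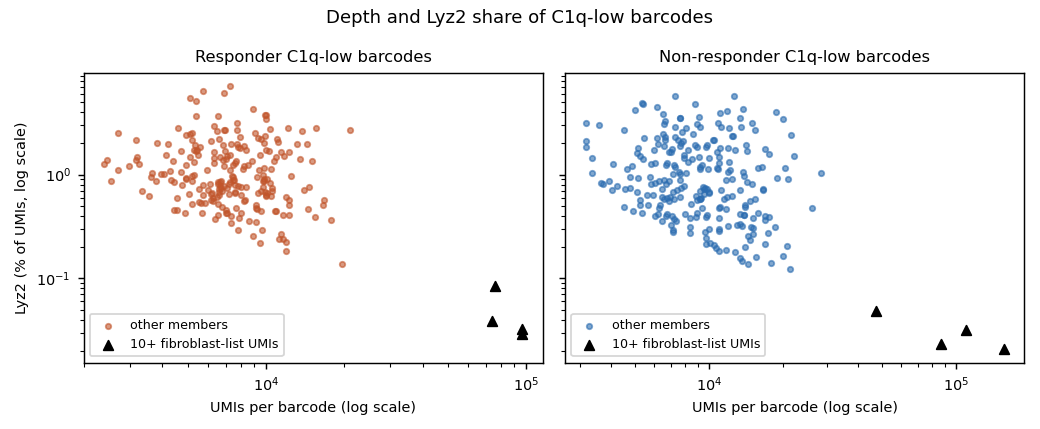
UMIs per barcode against the percent of UMIs from Lyz2 for the C1q-low members, both on log axes, with the responder library on the left and the non-responder library on the right. The 8 barcodes with 10 or more fibroblast-list UMIs (black triangles) lie at 47186 UMIs or more and at 0.0840% Lyz2 or less, away from the other members.

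The label monocyte-like was set beside marker lists of each cell type that the sort could hold. All 14 monocyte markers were detected in both classes of both libraries, so detection does not set the C1q-low barcodes apart. Their summed level in C1q-low barcodes was 3510 CPM (counts scaled to a common total for each class and library) against 971 CPM in C1q-high barcodes of the responder library, and 3271 against 932 CPM in the non-responder library. The list includes Chil3, Hp and Thbs1, which were proposed with the rule, and Plac8 and Ly6c2, which T cell barcodes also hold. The 12 macrophage markers summed to 10990 CPM against 19461 CPM in the responder library and to 10191 against 19930 CPM in the non-responder library. Without the 8 barcodes the C1q-low monocyte sums were 4125 CPM (responder) and 3675 CPM (non-responder), and the macrophage sums 12723 and 11426 CPM. Summed monocyte markers were thus higher and summed macrophage markers lower in C1q-low than in C1q-high barcodes of both libraries. The classes were cut by C1q, itself RNA of macrophages, so the macrophage sum is no independent check of the label. Apoe alone made up 8546 CPM of the responder and 6115 CPM of the non-responder macrophage sum without the 8 barcodes. Neutrophil markers summed to 198 CPM in the responder C1q-low barcodes, with 5 of 15 at 0, and to 557 CPM in the non-responder C1q-low barcodes, with 2 at 0, against 66.2 and 69.3 CPM in the responder and non-responder C1q-high barcodes. T cell markers stayed at 8.88 CPM in responder and 7.63 CPM in non-responder C1q-low barcodes, mast cell and basophil markers at 2.80 and 1.39 CPM, and 7 of 8 epithelial markers were at 0 in both. Type 1 dendritic markers summed to 546 CPM in C1q-low against 641 CPM in C1q-high barcodes of the responder library and to 310 against 481 CPM in the non-responder library, type 2 and mature dendritic markers to 136 against 95.2 CPM and 110 against 70.7 CPM, plasmacytoid markers to 815 against 1233 CPM and 670 against 1120 CPM, and NK markers to 15.4 against 7.96 CPM and 51.3 against 2.55 CPM. Their part in the results below was not tested. Fibroblast markers summed to 159 CPM in responder and 441 CPM in non-responder C1q-low barcodes, and to 2.78 CPM and 4.02 CPM without the 8 barcodes.

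Of the 6 proposed markers, 4 were high in the C1q-low barcodes of both libraries and 2 in the non-responder library alone. Chil3 (Ensembl ENSMUSG00000040809, GRCm38 chr3:106147554-106167564, minus strand), which encodes the secreted chitinase-like protein Ym1, had 182 CPM in C1q-low against 4.31 CPM in C1q-high barcodes of the responder library. In the non-responder library it had 305 CPM in C1q-low against 7.24 CPM in C1q-high barcodes, so the C1q-low level was 42.2-fold higher in the responder and 42.1-fold higher in the non-responder library. Members with a Chil3 UMI numbered 65 of 232 in the responder library and 100 of 254 in the non-responder library.

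Hp, the gene of the haemoglobin-binding protein haptoglobin (chr8:109575128-109579172, minus strand), had 35.0 CPM in C1q-low against 1.31 CPM in C1q-high barcodes of the responder library, and 33.6 against 1.42 CPM in the non-responder library. Slpi, a secreted inhibitor of leukocyte proteases (chr2:164354070-164389095, minus strand), had 42.0 CPM in C1q-low against 2.77 CPM in C1q-high barcodes of the responder library, and 165 against 6.03 CPM in the non-responder library. Thbs1, the matrix protein thrombospondin 1 (chr2:118111876-118127133, plus strand), had 74.3 CPM in C1q-low against 23.5 CPM in C1q-high barcodes of the responder library, and 114 against 17.6 CPM in the non-responder library. These 3 genes reached 34, 34 and 63 of the responder members and 36, 42 and 65 of the non-responder members, and at these levels a barcode with no UMI may still come from a cell that expresses the gene. Among T cell barcodes, UMIs of Slpi were in 0.980% and UMIs of Thbs1 in 2.94% in the responder library. In the non-responder library 143 of the 475 Slpi UMIs were in 1 barcode and the 5 highest barcodes held 82.9% of them.

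S100a8 and Cxcl3 did not mark the responder members. S100a8, a calcium-binding protein of neutrophils and monocytes (chr3:90668978-90670035, plus strand), had 2.34 CPM in C1q-low against 1.40 CPM in C1q-high barcodes of the responder library, and 277 against 20.03 CPM in the non-responder library. Cxcl3, a neutrophil-attracting chemokine (chr5:90786103-90789600, plus strand), had 0.467 CPM in C1q-low against 0.999 CPM in C1q-high barcodes of the responder library, where the C1q-low value is 1 UMI, and 72.8 against 9.75 CPM in the non-responder library. The high non-responder values came from few barcodes. Of its 798 S100a8 UMIs 646 were in 1 barcode, and the 5 highest barcodes held 82.9% of its 210 Cxcl3 UMIs. The 4 non-responder members with 10 or more UMIs of S100a8 and S100a9 together (no responder member had as many) also carried 161 UMIs of Retnlg, all in 1 of them, and 2 UMIs of Csf3r and 1 of Cxcr2, receptors of neutrophils. Whether these barcodes were neutrophils was not tested.

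Sequences are shown for 3 genes that the description turns on: Chil3 as the leading marker, Ly6c2 as the surface marker of the monocytes, and Mmp12 as the matrix protease that was higher in the C1q-low class and differed between the libraries. Each is the 250 bases before a start site in the RefSeq table of GRCm38.p6, read in the direction of the gene, with capitals at matches of GAGGAAGT (bound by the myeloid factor PU.1) or TTGCNNAA (C/EBP), searched on both strands.
Chil3, chr3:106167565-106167814, minus strand: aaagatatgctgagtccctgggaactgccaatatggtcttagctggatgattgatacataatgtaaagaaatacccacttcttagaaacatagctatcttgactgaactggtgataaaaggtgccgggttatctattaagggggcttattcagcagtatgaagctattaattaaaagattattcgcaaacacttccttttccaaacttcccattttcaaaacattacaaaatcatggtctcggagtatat
Ly6c2, chr15:75111972-75112221, minus strand: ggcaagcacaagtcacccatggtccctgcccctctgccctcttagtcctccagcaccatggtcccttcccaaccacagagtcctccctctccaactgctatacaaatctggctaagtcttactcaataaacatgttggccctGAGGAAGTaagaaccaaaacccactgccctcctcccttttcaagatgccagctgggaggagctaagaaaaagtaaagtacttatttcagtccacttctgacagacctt
Mmp12, chr9:7344147-7344396, plus strand: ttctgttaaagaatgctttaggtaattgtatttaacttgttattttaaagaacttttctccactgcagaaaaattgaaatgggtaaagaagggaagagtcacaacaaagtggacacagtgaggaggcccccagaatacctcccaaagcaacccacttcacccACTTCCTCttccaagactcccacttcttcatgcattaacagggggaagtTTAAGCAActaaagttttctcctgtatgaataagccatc
The Ly6c2 window holds 1 GAGGAAGT that begins 108 bases before the start. The Mmp12 window holds that motif on the other strand from 88 bases before the start and TTGCNNAA on the other strand from 39 bases before it, and the Chil3 window holds neither. In the table's 32851 promoters, 2.44% held GAGGAAGT and 9.56% held TTGCNNAA. Among the 6 markers and 12 genes higher in C1q-low barcodes named below, 14 were in the table. Counting a gene if any of its start sites matched, 3 of them (Ly6c2, Mmp12 and S100a8) held GAGGAAGT and 3 (Mmp12, Slpi and Plac8) TTGCNNAA. By start site, the unit of the shares over all promoters, these were 4 and 3 of 17. The 4 include both Ly6c2 windows, which overlap and share the match that begins 108 bases before the first start. Among 12 lower genes 11 were in the table, and Hpgds held GAGGAAGT, and Ch25h, Hpgds and Lilra5 held TTGCNNAA, by start site 1 and 3 of 13. A match is only a run of letters and does not show that the factor binds there.

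The C1q-low and C1q-high barcodes were compared over 4 summed profiles, 1 per class and library, with the library as a block, by edgeR's quasi-likelihood test and Benjamini-Hochberg adjustment over 11128 genes. Of these, 739 genes (6.64%) were higher and 467 (4.2%) lower in C1q-low barcodes at adjusted p under 0.05, with median log2 ratios of 1.80 and -0.88. The test has 1 residual degree of freedom, and its error is how far the class difference disagreed between the 2 libraries, a spread that may be technical. For each gene that error is moderated by the spread of the other genes, at a median of 7.05 prior degrees of freedom. The adjusted p-values therefore rest in large part on error borrowed from other genes. The classes were cut by C1q in the same barcodes, so any gene whose RNA goes with C1q from barcode to barcode differs between them through the cut itself. Without the 8 barcodes 601 genes (5.52%) were higher and 388 (3.56%) lower of 10889, and 324 higher and 263 lower genes were called in both. Without the library as a block 130 (1.17%) were higher and 7 (0.0629%) lower, and DESeq2 called 487 (4.38%) higher and 178 (1.6%) lower. With the C1q limit at 0.5%, 1073 of 11070 genes (9.69%) were higher and 859 (7.76%) lower, and with every barcode thinned to 3000 UMIs, 446 of 8888 (5.02%) were higher and 265 (2.98%) lower.

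The 12 higher genes with the largest ratios in both libraries were Aebp1, Pcolce, Klra4, Tm4sf1, Fosl1, Ppic, Serpinh1, Sparc, Col3a1, Sdc2, Inhba and Phgdh. Several encode matrix proteins or their helpers, and all but Inhba lost their call without the 8 barcodes. Serpinh1 had 186 CPM in C1q-low and 1.48 CPM in C1q-high barcodes of the responder library, and 97.7 and 1.94 CPM in the non-responder library. Without the 8 barcodes its C1q-low levels were 0 CPM in the responder and 1.61 CPM in the non-responder library. The same removal left 4 of the 12 (Aebp1, Pcolce, Klra4 and Tm4sf1) with too few counts to test and 7 past no threshold. Inhba, which encodes a chain of activin A, was still higher, at 10.6 CPM in C1q-low against 0.685 CPM in C1q-high barcodes of the responder library, and 6.44 against 0.485 CPM in the non-responder library (log2 ratio 3.92 ± 0.49, SE; edgeR adjusted p = 1.94e-05).

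The rule for named genes was therefore also applied without the 8 barcodes, a choice made after their values were seen, and the next values are those of all members unless said otherwise. Plac8, a gene expressed in blood monocytes (ENSMUSG00000029322, chr5:100553725-100572245, minus strand), had 1391 CPM in C1q-low against 87.9 CPM in C1q-high barcodes of the responder library and 1033 against 28.9 CPM in the non-responder library. Its log2 ratio was 4.55 ± 0.28 (SE; edgeR adjusted p = 5.7e-05) and 4.88 ± 0.21 without the 8 barcodes. Ly6c2, which encodes the monocyte surface protein Ly6C (ENSMUSG00000022584, chr15:75108158-75111970, minus strand), had 811 CPM in C1q-low against 57.2 CPM in C1q-high barcodes of the responder library, and 365 against 23.7 CPM in the non-responder library, with a log2 ratio of 3.88 ± 0.12 (edgeR adjusted p = 5.1e-06). It is close in sequence to Ly6c1, so counts of the pair may be split between them. Both genes were higher in the C1q-low class of both libraries.

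Other genes of this group were a mix of surface proteins, secreted enzymes and calcium-binding proteins. F10, coagulation factor X, had 60.3 CPM in C1q-low against 3.08 CPM in C1q-high barcodes of the responder library and 79.0 against 2.51 CPM in the non-responder library (log2 ratio 4.61 ± 0.23; edgeR adjusted p = 2.1e-05). Cd24a, a small surface glycoprotein, had 20.6 CPM in C1q-low against 0.656 CPM in C1q-high barcodes of the responder library, and 115 against 4.41 CPM in the non-responder library (log2 ratio 4.80 ± 0.19). Mmp12, macrophage elastase, had 113 CPM in C1q-low against 21.6 CPM in C1q-high barcodes of the responder library, and 812 against 69.3 CPM in the non-responder library (log2 ratio 3.01 ± 0.27; edgeR adjusted p = 0.000374). All 3 were higher in C1q-low barcodes of both libraries, and Cd24a and Mmp12 were several times higher in the non-responder library in both classes. S100a6 and S100a4 had log2 ratios of 2.82 ± 0.09 and 2.98 ± 0.19 with all members and 2.43 ± 0.11 and 2.45 ± 0.12 without the 8. The remaining genes were Ly6i, Mcemp1, Ifitm6, Glipr2 and the leukotriene B4 receptor gene Ltb4r1, with log2 ratios between 2.48 and 3.43.

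Ccl8 and Ccl12, chemokines of the monocyte-attracting group, led the lower genes. Ccl8 (ENSMUSG00000009185, chr11:82115185-82116799, plus strand) had 14.0 CPM in C1q-low against 317 CPM in C1q-high barcodes of the responder library and 6.59 against 58.1 CPM in the non-responder library (log2 ratio -4.02 ± 0.28, SE; edgeR adjusted p = 0.000103). Ccl12 had 235 CPM in C1q-low against 944 CPM in C1q-high barcodes of the responder library, and 272 against 2316 CPM in the non-responder library (log2 ratio -2.56 ± 0.20). Ms4a7, a membrane protein of macrophages (chr19:11321039-11336146, minus strand), had 515 CPM in C1q-low against 2003 CPM in C1q-high barcodes of the responder library, and 498 against 1735 CPM in the non-responder library, with a log2 ratio of -1.88 ± 0.10 (edgeR adjusted p = 2.87e-05). These 3 genes were lower in both libraries and with or without the 8 barcodes. Ch25h, which makes an oxysterol, and Hpgds, a prostaglandin D synthase, both had log2 ratios of -2.05. The other genes named on this side by the rule with all members were Fcrls, Tmem176a, Blnk, Cadm1, Lilra5, Ctla2b and Tmem176b, at log2 ratios between -1.87 and -2.28. Without the 8 barcodes the rule named Prune2, Rapsn and Ccnb2 in place of Cadm1, Ctla2b and Tmem176b.

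**Figure D3:**
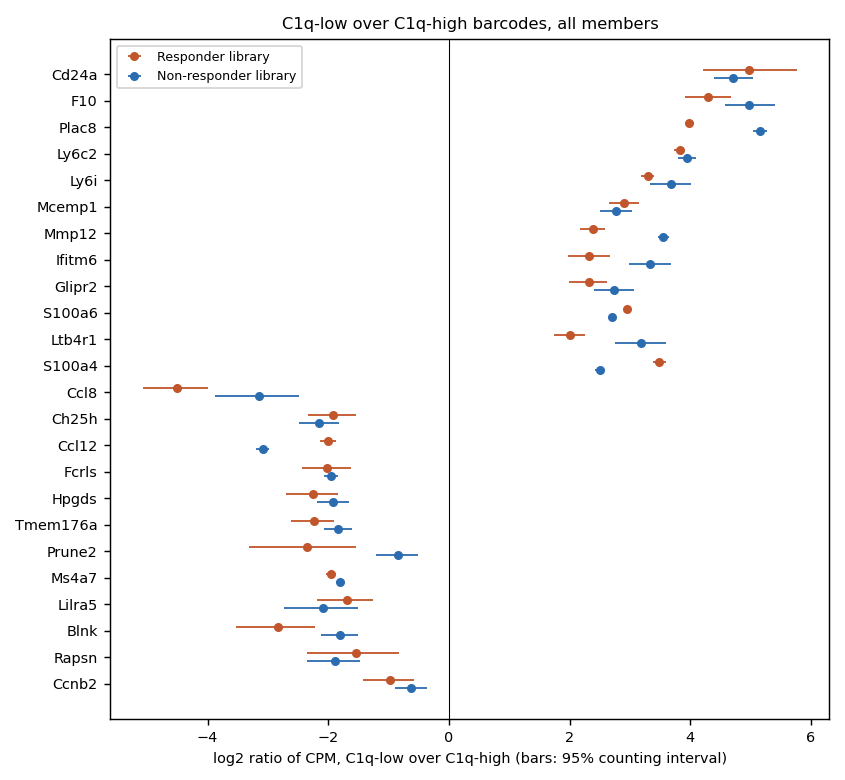
Log2 ratio of CPM, C1q-low over C1q-high, for each library and for 12 higher and 12 lower genes named without the 8 barcodes, with lines for the 95% counting interval. All 12 higher genes lie above 0 and all 12 lower genes below 0 in both libraries, from 5.16 for Plac8 in the non-responder library to -4.50 for Ccl8 in the responder library.

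The C1q share of the members ran into that of the C1q-high barcodes without a gap, though the members had a separate peak under 0.1%. The leading genes changed along the C1q share without a step at 1%. Just inside the limit, between 0.75% and 1%, 52 responder barcodes had 949 CPM of Plac8 and 685 CPM of Ms4a7, and just outside, in the next tier of equal width above 1%, 97 had 597 CPM of Plac8 and 966 CPM of Ms4a7. In the non-responder library 73 barcodes just inside had 224 CPM of Plac8 and 771 CPM of Ms4a7, and 76 just outside had 185 and 1055 CPM. Barcodes on either side of the limit were thus near each other in both genes. A larger change lay at 0.5% in the non-responder library, where Plac8 had 73.5 CPM between 0.5% and 0.75% C1q against 967 CPM between 0.25% and 0.5%, and Ly6c2 had 85.8 against 470 CPM. In the responder library Plac8 had 969 against 858 CPM in the same tiers. The non-responder class values therefore combine 152 members under 0.5% C1q, 82 of them with 10 or more UMIs of Plac8, Ly6c2 and Chil3, with 102 members at 0.5% to 1%, 13 of them with as many, and the responder ones 147 members, 86 with as many, with 85 members, 33 with as many. At the low end, under 0.1% C1q, Plac8 reached 1676 CPM in 85 responder and 1888 CPM in 102 non-responder barcodes. At the Lyz2 limit, members with 20 to 24 Lyz2 UMIs numbered 12 in the responder library and 22 in the non-responder one (2 of the 22 among the 8) and had 3306 and 917 CPM of Plac8, Ly6c2 and Chil3 together, and 14 barcodes in each library with 15 to 19 Lyz2 UMIs had 965 CPM in the responder and 841 CPM in the non-responder library.

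**Figure D4:**
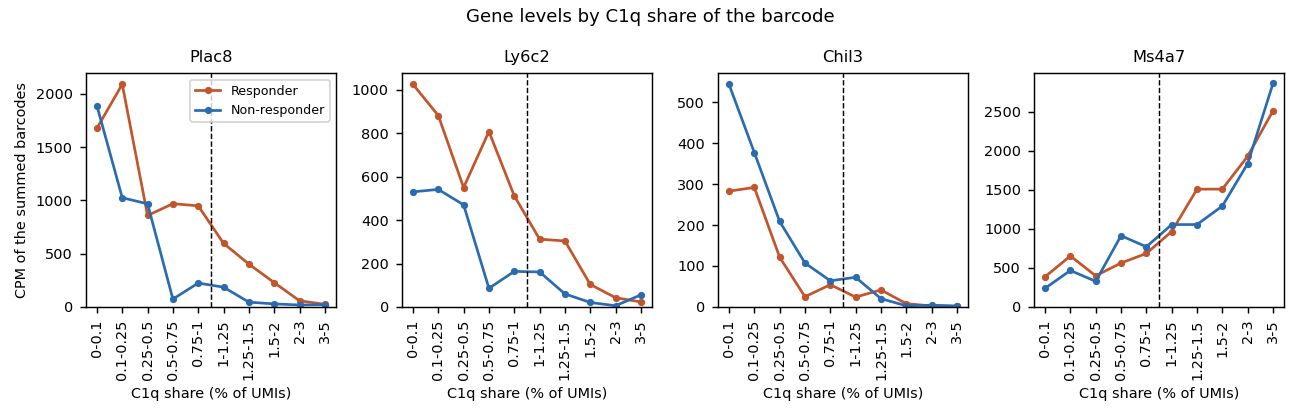
Level in CPM (linear axes, each from 0) of Plac8, Ly6c2, Chil3 and Ms4a7 in barcodes grouped by their C1q share, in both libraries, with a dashed line at the 1% limit. Plac8, Ly6c2 and Chil3 are highest at the low C1q shares and Ms4a7 at the high ones, with some tiers out of order and with Ms4a7 at 386 CPM in the responder and 239 CPM in the non-responder barcodes under 0.1%, and no gene makes its largest change at the line.

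The members differed in how much monocyte RNA they held, so the name monocyte-like describes part of the class and not each member. In 119 of 232 responder members (51.3%, interval 44.7% to 57.9%) and 95 of 254 non-responder members (37.4%, interval 31.4% to 43.7%), Plac8, Ly6c2 and Chil3 came to 10 or more UMIs together, against 4.40% of responder and 1.77% of non-responder C1q-high barcodes. No UMI of the 3 genes was found in 44 responder and 87 non-responder members. Both kinds of RNA met in some barcodes: 22 responder and 16 non-responder members had 10 or more UMIs of the 3 genes and 5 or more of Ms4a7. Plac8 and Ly6c2 are also T cell RNA, and 38.2% of responder and 33.3% of non-responder T cell barcodes reached 10 UMIs, so T cell barcodes give no background level for these 2 genes. Chil3 was rare in T cell barcodes. With every barcode thinned to 3000 UMIs, 20.4% of responder and 29.5% of non-responder members had a Chil3 UMI, against 0.945% and 1.45% of the C1q-high barcodes of the same libraries. Unthinned, the shares with a Chil3 UMI were 28.02% of responder members and 39.4% of non-responder members, 2.06% and 3.59% of the C1q-high barcodes, and 0.980% and 1.45% of the T cell barcodes. Thinning left out 6 responder members with under 3000 UMIs and no non-responder member.

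Members without Plac8, Ly6c2 and Chil3 UMIs had other profiles in each library, and these values leave the 8 barcodes out. In the non-responder library the 86 such members had 80 CPM of Il1b, against 1559 CPM in the 95 members with 10 or more, 95.4 against 546 CPM of Ccr2, and 1088 against 3031 CPM of H2-Ab1. They had 1752 against 409 CPM of Mmp12, 792 against 280 CPM of the hypoxia gene Hilpda, 2119 against 848 CPM of the haem-degrading enzyme gene Hmox1 and 1422 against 188 CPM of Mt2, a metal-binding metallothionein. Vegfa, another hypoxia gene, had 39.4 against 36.5 CPM. Non-responder members with no UMI of the 3 genes thus had lower levels of Il1b, Ccr2 and H2-Ab1 and higher levels of Mmp12, Hilpda, Hmox1 and Mt2, as a description with no test. They also lay closer to the C1q limit, with a median of 0.746% C1q against 0.0609%. In the responder library the 44 such members had 912 CPM of Il1b, against 2501 CPM in 118 members with 10 or more, 985 against 435 CPM of Ms4a7 and 417 against 1010 CPM of Gbp2, but 12386 against 13281 CPM of H2-Ab1 and 125 against 148 CPM of Hilpda. The groups differ in depth as well, with median UMIs of 11063.5 against 7187 in the non-responder and 7627.5 against 6727 in the responder library.

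Gene lists were used to describe the C1q-low class by function, with the background of 6.64% of all genes higher and 4.2% lower, a median log2 ratio of -0.02 over all genes, and counts without the 8 barcodes after each (background 5.52% and 3.56%). Of 17 tested monocyte genes 12 were higher and 2 lower, and 13 and 2 without the 8, at a median log2 ratio of 1.29. Ccr2, the receptor that brings monocytes out of the marrow and into tissue, had 144 CPM in C1q-low against 31.4 CPM in C1q-high barcodes of the responder and 255 against 84.5 CPM in the non-responder library (log2 ratio 1.88 ± 0.14; edgeR adjusted p = 0.000155). Cd300e and Clec4a3 were the 2 lower ones, and Cd300e had 15.9 CPM in C1q-low against 60.3 CPM in C1q-high barcodes of the responder library, and 3.47 against 4.29 CPM in the non-responder library. The other 3 tested monocyte genes were not called with all members.

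Genes of the resident type of macrophage fell, 16 of 18 tested with none higher, and 15 without the 8, at a median log2 ratio of -1.45. C1q is itself RNA of such macrophages, so the cut bears on this list directly. Apoe, the lipid carrier, had 7250 CPM in C1q-low against 13138 CPM in C1q-high barcodes of the responder and 5281 against 11813 CPM in the non-responder library (log2 ratio -1.01 ± 0.08; edgeR adjusted p = 0.000144). Cx3cr1, the fractalkine receptor, had 71.9 CPM in C1q-low against 267 CPM in C1q-high barcodes of the responder library, and 157 against 387 CPM in the non-responder library. Of 21 lysosome and lipid genes 9 were lower and 5 higher, and 5 and 7 without the 8. Those higher in both counts were Ctsl, Gpnmb, Lpl, Cd9 and Plin2, of which Lpl and Plin2 handle lipid, and those lower in both included Ctsb, Lgmn, Cd63 and Hexa, proteins of the lysosome. Among 10 CC chemokine genes Ccl6 and Ccl9 were higher and Ccl7, Ccl8 and Ccl12 lower in both counts.

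The interleukin-1 system and chemokines that draw neutrophils were higher, 7 of 11 tested with none lower, with or without the 8 barcodes, at a median log2 ratio of 1.249. Il1b had 1485 CPM in C1q-low against 501 CPM in C1q-high barcodes of the responder and 620 against 209 CPM in the non-responder library (log2 ratio 1.56 ± 0.10; edgeR adjusted p = 5.37e-05). Il1r2, a decoy receptor for interleukin-1, had 155 CPM in C1q-low against 35.2 CPM in C1q-high barcodes of the responder library, and 32.6 against 11.7 CPM in the non-responder library, and Ptgs2, the inducible cyclooxygenase, had 41.6 against 14.6 CPM and 24.96 against 6.39 CPM. The other genes that rose were Il1a, the receptor antagonist gene Il1rn, Cxcl1 and Cxcl2. Per barcode, the list came to a median of 0.351% of UMIs in C1q-low against 0.0995% in C1q-high barcodes of the responder library, and 0.244% against 0.105% in the non-responder library. The inflammasome genes Nlrp3 and Casp1 were not called, at log2 ratios of 0.09 ± 0.15 and -0.07 ± 0.13. Of 16 secreted defence proteins only 4 had enough counts to test, and S100a9, Prtn3 and Pglyrp1 were higher. S100a9 had no UMI in the responder members and 282 of its 359 non-responder UMIs in 1 barcode, so its call does not describe the class.

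Matrix and coagulation genes were higher, 16 of 20 tested with none lower, and 15 of 19 with 1 lower (Timp2) without the 8, at a median log2 ratio of 1.63. Fn1, fibronectin, had 165 CPM in C1q-low against 30.2 CPM in C1q-high barcodes of the responder and 679 against 313 CPM in the non-responder library (log2 ratio 1.74 ± 0.24; edgeR adjusted p = 0.00329). Spp1, osteopontin, had 400 CPM in C1q-low against 64.2 CPM in C1q-high barcodes of the responder library, and 4462 against 1182 CPM in the non-responder library (log2 ratio 2.26 ± 0.14). Plaur, the urokinase receptor, had 268 CPM in C1q-low against 117 CPM in C1q-high barcodes of the responder library, and 231 against 127 CPM in the non-responder library. These genes kept their direction without the 8 barcodes, while Timp1, at log2 3.73 ± 0.40 with all members, came to 2.08 ± 0.50 without them.

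Hypoxia genes were higher, 10 of 16 tested with none lower, and 12 without the 8, at a median log2 ratio of 1.06. Hilpda, which covers lipid droplets, had 116 CPM in C1q-low against 65.1 CPM in C1q-high barcodes of the responder and 466 against 128 CPM in the non-responder library (log2 ratio 1.38 ± 0.24; edgeR adjusted p = 0.00829). Bhlhe40, a transcription repressor, had 49.0 CPM in C1q-low against 14.6 CPM in C1q-high barcodes of the responder library, and 150 against 45.0 CPM in the non-responder library. Of 14 glycolysis genes 4 were higher with all members and 10 without the 8, none lower, and Pkm, pyruvate kinase, had a log2 ratio of 0.39 ± 0.11 with all members, which was not called, and 0.54 ± 0.10 without the 8. Of 14 arginine and suppressive genes 7 were higher and 1 lower, and 7 and none without the 8, at a median log2 ratio of 0.70. Arg1, arginase, had 694 CPM in C1q-low against 324 CPM in C1q-high barcodes of the responder library, and 2258 against 587 CPM in the non-responder library (log2 ratio 1.52 ± 0.20; edgeR adjusted p = 0.0023). Nos2, the enzyme that makes nitric oxide from the same amino acid, had 42.0 CPM in C1q-low against 13.04 CPM in C1q-high barcodes of the responder library, and 19.8 against 6.23 CPM in the non-responder library. Lgals1 was called with all members and not without the 8, where its log2 ratio was 0.11 ± 0.10.

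Antigen presentation and interferon genes had few calls between the classes. The 11 MHC class II genes had edgeR adjusted p between 0.0745 and 0.628 with all members, at a median log2 ratio of -0.28, and H2-DMb2 alone was called without the 8, as higher. Of 23 interferon-gamma induced genes 2 were higher (Nos2 and Cd274, the gene of PD-L1) and 5 lower, and without the 8 the same 2 were higher and 3 lower. Of 20 type I interferon induced genes 1 was higher and 1 lower with all members and 3 were higher without the 8. Cd74, the MHC class II chaperone, had 25746 CPM in C1q-low against 32426 CPM in C1q-high barcodes of the responder and 6317 against 7044 CPM in the non-responder library (log2 ratio -0.25 ± 0.08; edgeR adjusted p = 0.102). The counts for MHC class II and type I interferon genes lay near the background shares, and the 5 lower interferon-gamma genes (among them Gbp2b, Serpina3g, Il18bp and Psmb9) lay above theirs.

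The remaining lists were split or turned with the 8 barcodes. Among 19 lectins and pattern receptors 6 were higher and 4 lower, and 9 and 3 without the 8: Clec4d, Clec4e, Mgl2, Cd14, Trem1 and Msr1 were higher in both counts and Clec4a1, Clec4a3 and Clec12a lower in both. Clec4e, the receptor Mincle, had 130 CPM in C1q-low against 18.9 CPM in C1q-high barcodes of the responder and 207 against 60.4 CPM in the non-responder library. Of 16 adhesion and migration receptors 4 were higher and 2 lower, and 7 and 1 without the 8. Of 18 proliferation genes 1 was higher and 6 lower with all members, and none higher and 16 lower without the 8. Ube2c, a ubiquitin-conjugating enzyme of mitosis, had 185 CPM in C1q-low and 93.1 CPM in C1q-high barcodes of the responder library with all members and 10.0 CPM in C1q-low barcodes without the 8, so that its log2 ratio was 0.87 ± 0.11 with them and -1.58 ± 0.29 without. Of 19 transcription factors 2 were higher and 2 lower with all members, Nr4a1 and Fosl2 against Maf and Batf3, and 7 higher and 1 lower without the 8. Oxidase and redox genes gave 2 higher and 1 lower of 14, and 5 and none without the 8, and growth factor receptors gave 1 lower of 10 (Tgfbr2), and 3 higher and 1 lower without the 8. Dissociation stress genes, which move with how cells are handled, gave 2 higher and 1 lower of 14 and 6 and none without the 8, and their part in the results was not tested.

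Within the C1q-low class the responder and non-responder libraries were compared as levels, with no test. Of 6121 genes with 50 or more counts, 234 (3.82%) were more than 2-fold higher and 281 (4.59%) more than 2-fold lower in the responder library. In C1q-high barcodes the same limits gave 374 (3.53%) higher and 432 (4.07%) lower of 10605. The median log2 ratio over all genes was 0.00 in C1q-low and -0.11 in C1q-high barcodes. These are differences between 2 libraries, and what belongs to the response group, to the mice or to the preparation cannot be told apart.

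Several genes that were far higher in responder members are known to be induced by interferon-gamma. Cxcl9, a chemokine for T cells (ENSMUSG00000029417, chr5:92321347-92328079, minus strand), had 562 CPM in responder and 14.9 CPM in non-responder C1q-low barcodes, a log2 ratio of 5.24 (interval 4.80 to 5.71), against 3.36 in C1q-high barcodes. Its UMIs were in 134 of 232 responder and 14 of 254 non-responder members, against 27 of 102 responder and 2 of 69 non-responder T cell barcodes at lower depth (medians of 3933 and 5146 UMIs, against 7343 and 9166.5 in the members). The guanylate-binding protein genes Gbp2 and Gbp4 had 731 and 118 CPM in responder and 75.2 and 9.36 CPM in non-responder members, at log2 ratios of 3.28 and 3.66, and the near-identical Gbp2b may share reads with Gbp2. Iigp1, an immunity-related GTPase, had 155 CPM in responder and 11.4 CPM in non-responder members (log2 3.76), and Serpina3g, a protease inhibitor, 128 CPM in responder and 7.97 CPM in non-responder members. Each of these 5 genes was over 2-fold higher in responder C1q-high barcodes as well, at log2 ratios between 1.86 and 3.36.

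Others on this side were membrane proteins and a chemokine. Ifitm1, an interferon-induced membrane protein, had 1656 CPM in responder and 123 CPM in non-responder members (log2 3.75, interval 3.60 to 3.92). Ccl5, which draws T cells and monocytes, had 1851 and 232 CPM in responder and non-responder members (log2 2.99), and Ly6i, a relative of Ly6c2, 522 and 64.1 CPM (log2 3.03). These 3 genes were also more than 2-fold higher in responder C1q-high barcodes. Fam26f, Dnase1l3, Ocstamp and AW112010 completed the 12 by the rule, at log2 ratios between 2.99 and 4.75.

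On the lower side several genes were carried by single barcodes of the non-responder library. Gzmc, a granzyme of killer lymphocytes, had no UMI in responder and 254 in non-responder members, 239 of them in 1 barcode. Retnlg had none in responder and 164 in non-responder members, 161 in 1 barcode, and S100a9 none and 359, 282 in 1 barcode. Ifnb1 (98.7% of UMIs in 5 barcodes), Npy (92.3%), S100a8 and Cxcl3 were concentrated in the same way, so these values describe a few cells and not the class.

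Of the other lower genes, Spp1 and Bhlhe41 were spread over more members, while Mt2 levels fell in both libraries when the 8 barcodes were left out. Spp1 (ENSMUSG00000029304, chr5:104435118-104441050, plus strand) had 400 CPM in responder and 4462 CPM in non-responder members, a log2 ratio of -3.48 (interval -3.58 to -3.38), against -4.20 in C1q-high barcodes, and 67 of 232 responder members and 212 of 254 non-responder members carried it, against 11 of 102 responder and 31 of 69 non-responder T cell barcodes. Mt2 had 103 CPM in responder and 1390 CPM in non-responder members (log2 -3.75), against -1.24 in C1q-high barcodes, and 62.9 and 828 CPM without the 8 barcodes. Bhlhe41, a transcription repressor (chr6:145858243-145865558, minus strand), had no UMI in responder members and 149 UMIs in 59 non-responder members, so that it was at least 36.9-fold lower in the responder library against a floor of 3 counts, and it had 3.00 CPM in responder and 49.5 CPM in non-responder C1q-high barcodes. Adm, the vascular peptide adrenomedullin, had none in responder members and 27.0 CPM in non-responder members (at least 19.3-fold lower), and Igf1, a growth factor, 0.467 and 29.1 CPM. Spp1 and Bhlhe41 were thus low throughout the responder library, in C1q-high barcodes as well as in the members.

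**Figure D5:**
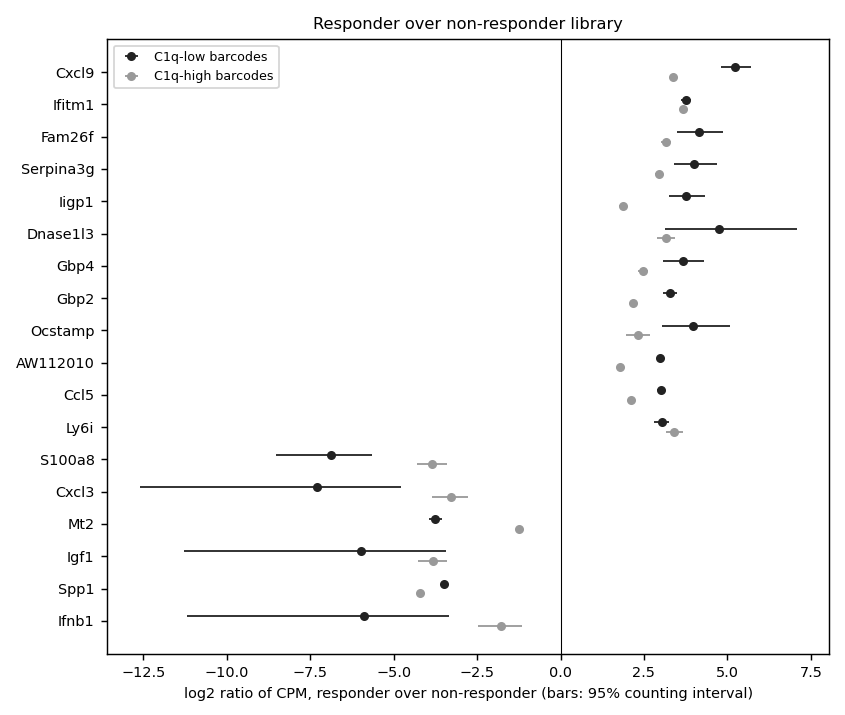
Log2 ratio of CPM, responder over non-responder, in C1q-low and in C1q-high barcodes, for the 12 higher genes and the 6 lower genes whose intervals are finite, with lines for the 95% counting interval. Genes induced by interferon-gamma lie to the right in both classes (Cxcl9 at 5.24 in C1q-low and 3.36 in C1q-high barcodes) and Spp1 to the left in both (-3.48 and -4.20), with widest intervals for Cxcl3, Igf1 and Ifnb1, each with 1 UMI in responder members.

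Lists gave the same split between the libraries. All 9 MHC class II genes with 50 counts were higher in responder members, at a median log2 ratio of 1.83, and all 11 measured in C1q-high barcodes were, at 1.71. H2-Ab1 had 11433 CPM in responder and 2102 CPM in non-responder members. All 20 interferon-gamma induced genes with 50 counts were higher in responder members, at a median of 1.88, against 1.53 for 23 genes in C1q-high barcodes. Antigen presentation and interferon-gamma genes were thus higher across both classes of the responder library, where 17 of the 20 interferon genes were past 2-fold in the members. The type I interferon list had a median of 0.03, with 11 of 20 genes higher.

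MHC class II was spread differently over the members of each library. It came to a median of 6.63% of the UMIs of a responder member, with quartiles at 4.15% and 8.15%, and to a median of 0.280% of a non-responder member, with quartiles at 0.112% and 2.38%. The highest non-responder member had 13.05% and the lowest responder member 0.127%, so the ranges overlapped while the spans between the quartiles did not. C1q-high barcodes had medians of 7.16% in the responder library and 0.335% in the non-responder one, so in each library the classes were closer to each other than to the same class of the other library.

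Hypoxia, lipid and arginine genes lay on the other side or were split. Of 16 hypoxia genes 15 were lower in responder members, 12 of them more than 2-fold, at a median log2 ratio of -1.63. These counts include the 8 barcodes, and the median was -0.96 without them. It was -0.93 with a Lyz2 limit of 40 UMIs and -0.82 with Lyz2 at 0.2% of UMIs. In C1q-high barcodes the median was -0.80 under the main limits, so the size of the difference in the members depended on which barcodes were kept. Hilpda had 116 CPM in responder and 466 CPM in non-responder members, and Hmox1 had 185 and 1474 CPM, a log2 ratio of -3.00 against -1.56 in C1q-high barcodes. Lysosome and lipid genes had a median of -0.83, with 18 of 21 lower, against -0.52 in C1q-high barcodes. Of 11 arginine and suppressive genes 6 were higher and 5 lower: Arg1 had 694 CPM in responder and 2258 CPM in non-responder members (log2 -1.70), while Nos2 had 42.0 and 19.8 CPM and Il1b, from its own list, 1485 and 620 CPM. Proliferation genes had a median of -0.55 with all members and -1.31 without the 8, and monocyte genes a median of -0.09 with 7 of 15 higher, against 0.70 in C1q-high barcodes and 0.66 in C1q-low barcodes with the C1q limit at 2%. Glycolysis genes were all lower in responder members, 14 of 14, but none past 2-fold, at a median of -0.53.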

How the data were processed

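Per the labels, cells were captured with the 10x Chromium 3' v3 kit. The submitters' processing notes name Cell Ranger 1.1.0 and, as builds, mm10 and GRCm38. The authors deposited filtered matrices of UMI counts per gene and barcode (whole numbers, 27998 gene identifiers), while annotation release and cell calling are not given in the sources used here. Coordinates came from GENCODE M21, which held 27645 of the identifiers. No doublet caller was run: C1q-low barcodes with a Cd3 UMI were left out by the rule, and barcodes over the 95th percentile of UMIs were left out as an alternative.

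Counts were summed per library and class. The classes were tested with edgeR 4.0.16 in R 4.3.3 (filterByExpr, TMM, library as a block, Benjamini-Hochberg adjustment, threshold 0.05), and DESeq2 1.42.0 was an alternative. The script was tested on simulated counts. Genes of the rule and the 6 proposed markers got no p. Responder and non-responder libraries were compared by CPM ratio with conditional exact binomial 95% intervals, for genes or list members of 50 or more counts, and against 3 counts where a library had none. Tables and figures used Python 3.11.15.

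Members, the 20 gene lists and the marker lists were chosen with earlier results of these data known. Named genes were, per side, the 12 called genes of 20 CPM or more with the largest smaller ratio of the 2 libraries, and for responder against non-responder the 12 whose interval bound nearest 0 was largest in size. Predicted, ribosomal, mitochondrial and rule genes were not named. Of 328 listed genes 5 had no entry in the tables used, and Mx2, Cebpd and Clec7a were not analysed here. Some members of the lists are not reported here by name.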

Additional observations from a re-analysis of the deposited data

Results flagged for a closer look

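For 3 of the genes named between the libraries, the C1q-low over C1q-high log2 ratio was above 0 in the responder library and below 0 in the non-responder library. For Gbp4 the ratio was 0.59 (responder library) against -0.60 (non-responder library), a difference of 1.19. For Gbp2 it was 0.50 (responder library) against -0.62 (non-responder library), a difference of 1.11. For Ccl5 it was 0.09 (responder library) against -0.79 (non-responder library), a difference of 0.88. With 1 library per group these differences were not tested.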

How the results depend on the processing

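The C1q-low share moved beyond its interval with the C1q limit. For the responder library it was 4.28% at a limit of 0.5%, 20.7% at 2% and 7.85% with C1q-high set at 2% or more, and for the non-responder library 7.16%, 41.4% and 17.0%. In the non-responder library it was 13.5% with a Lyz2 limit of 10 UMIs and 9.82% with one of 40. The number of genes higher in C1q-low barcodes, 739, was 458 at a C1q limit of 2%, 322 at a Lyz2 limit of 40, 446 after thinning to 3000 UMIs, 487 with DESeq2 and 130 with no replicate block. The number lower, 467, was 859 at a C1q limit of 0.5%, 242 at 2%, 752 and 182 at Lyz2 limits of 10 and 40, 265 after thinning, 178 with DESeq2, 883 with no filter on low counts, 183 when also past 2-fold and 7 with no replicate block, where the block is the library. Of the genes named by rule, 20 lost their call with no replicate block, 6 at a Lyz2 limit of 40, 3 at a C1q limit of 2% and 1 with DESeq2. Between the libraries, 128 genes were higher and 113 lower after thinning, and 93 and 89 at 200 or more counts. Ratios that changed sign were those of genes carried by the 8 barcodes. With Lyz2 at 0.2% of UMIs, the log2 ratio was -0.64 for Ppic, -0.54 for Serpinh1, -0.013 for Col3a1, -1.47 for Sdc2 and -0.54 for Phgdh. Without barcodes over the 95th UMI percentile it was -0.56 for Ppic, -0.88 for Serpinh1, -1.34 for Sdc2 and -0.38 for Phgdh, and without the 8 barcodes -0.61, -0.85, -1.48 and -0.40. Over all lists and alternatives, 1039 list medians moved by at most 1.5 times and 41 by more. The median of the monocyte list between the libraries was 0.66 at the C1q limit of 2%, in place of -0.09. The causes of the other changes were not tested, apart from the fewer counts or barcodes that thinning and stricter limits leave. With 1 library left out no residual degree of freedom remained, so the values per library in the report stand in for that alternative. Counts of 3 or fewer UMIs in the C1q-low sums limit statements on rare genes.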
